A study of Mus musculus with 40 samples.

Results

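The 8 genes described here encode the chains of the fibril-forming collagens of types I, III and V and of the microfibril-forming type VI collagen. They are Col1a1, Col1a2, Col3a1, Col5a1, Col5a2, Col6a1, Col6a2 and Col6a3. They were taken by name from the 15958 genes of a table of log2 TPM, the length-scaled abundance of a transcript as a share of its library, and all 8 were present and passed the filter on low values in each of the 3 tissues. The mice were wild type C57BL/6 males that underwent small bowel resection (SBR) or a sham operation at 8 weeks of age, in which the bowel was cut and rejoined without removal. The labels give the extent of resection as 50 to 60%, and the methods of the study give a higher extent. From 3 weeks after surgery, the mice received vehicle or 30 mg/kg of WUSTL0717 daily for 7 weeks. WUSTL0717 is an agonist of the liver X receptors, nuclear receptors for oxysterols, and the study describes it as restricted to the gut. All sham mice received vehicle. The liver was sampled in 5 mice after sham surgery, in 8 after SBR with vehicle and in 5 after SBR with WUSTL0717. For the duodenum and for the ileum beyond the anastomosis these numbers were 3, 4 and 4. There was no sham group on WUSTL0717, so its effect was measured after resection alone. The liver tissue came from 1 lobe, and the labels do not say which libraries of different tissues came from the same mouse.

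Type I collagen is a triple helix of 2 chains from Col1a1 and 1 from Col1a2, and it is the main load-bearing fibril of scar tissue. Type III collagen, 3 identical chains from Col3a1, forms finer fibrils together with type I, and type V collagen, from Col5a1 and Col5a2, helps to start fibrils and set their width. Type VI collagen joins the chains of Col6a1, Col6a2 and Col6a3 into beaded microfibrils that link cells to the surrounding matrix. In the liver, these collagens are made mainly by stellate cells and portal fibroblasts, and their excess deposition is what is called fibrosis.

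In the GRCm38 annotation, Col3a1 (chr1:45311538-45349706, plus strand) and Col5a2 (chr1:45374321-45503282, minus strand) were neighbours with 24614 bases between them. Col6a2 (chr10:76595762-76623630) and Col6a1 (chr10:76708792-76726168) lay 85161 bases apart, both on the minus strand. Col1a1 lay at chr11:94936224-94953042 and Col1a2 at chr6:4504814-4541544, both on the plus strand. Col5a1 lay at chr2:27886425-28039514 on the plus strand and Col6a3 at chr1:90765923-90843971 on the minus strand. Other annotated gene models overlapped Col1a2, Col3a1, Col5a1, Col5a2 and Col6a3, of which 2 at Col5a1 ran antisense to it. None of the overlapping models was in the table. The methods of the study say that only reads assigned to a single gene were counted, so reads shared with these models may be missing from the collagen values. Whether counting used the strand is not given in the sources used here.

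Because the 8 genes moved together in the liver, the bases before their start sites are shown for those 4 whose RefSeq start was the start of the annotated gene. RefSeq (GRCm38.p6) had promoter entries for 6 of the 8 genes, and Col1a1 and Col5a2 had none. Each sequence holds the 250 bases before the start, read 5′ to 3′ on the strand of the gene. Capitals mark 4 motifs searched on both strands, the CCAAT box (CCAAT), the GC box (GGGCGG), the TATA box (TATAAA) and the CAGAC element (CAGAC). No 2 of them overlap in these windows. The positions were chr1:45311288-45311537 (plus strand) for Col3a1, chr2:27886175-27886424 (plus) for Col5a1, chr10:76623631-76623880 (minus) for Col6a2 and chr1:90843972-90844221 (minus) for Col6a3.
Col3a1: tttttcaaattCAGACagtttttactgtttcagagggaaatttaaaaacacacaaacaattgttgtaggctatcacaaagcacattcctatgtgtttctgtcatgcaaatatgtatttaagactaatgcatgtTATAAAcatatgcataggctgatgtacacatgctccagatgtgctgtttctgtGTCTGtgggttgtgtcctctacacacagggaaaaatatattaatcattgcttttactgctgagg
Col5a1: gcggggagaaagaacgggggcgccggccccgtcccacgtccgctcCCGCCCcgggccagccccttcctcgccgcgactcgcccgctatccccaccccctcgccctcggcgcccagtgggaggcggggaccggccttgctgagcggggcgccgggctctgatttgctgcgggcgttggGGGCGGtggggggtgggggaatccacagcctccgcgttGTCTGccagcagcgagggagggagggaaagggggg
Col6a2: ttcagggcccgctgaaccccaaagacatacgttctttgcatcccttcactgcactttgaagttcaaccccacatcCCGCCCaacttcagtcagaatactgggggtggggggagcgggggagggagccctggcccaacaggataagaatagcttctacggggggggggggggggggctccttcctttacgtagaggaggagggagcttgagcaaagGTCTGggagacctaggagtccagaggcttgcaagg
Col6a3: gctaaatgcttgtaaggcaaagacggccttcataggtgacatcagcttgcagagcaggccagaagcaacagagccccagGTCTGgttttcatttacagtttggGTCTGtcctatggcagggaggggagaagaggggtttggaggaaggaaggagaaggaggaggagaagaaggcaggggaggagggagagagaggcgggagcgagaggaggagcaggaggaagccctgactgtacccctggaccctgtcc

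The 4 windows differed in base composition, and none of the 4 motifs was in all of them except CAGAC. The GC content was 35.2% for Col3a1, 76.4% for Col5a1, 59.2% for Col6a2 and 57.2% for Col6a3, against a median of 52.4% over 32851 RefSeq promoters. The CAGAC letters stood in 42.2% of all promoters, at -239 and -64 before Col3a1, at -35 before both Col5a1 and Col6a2, and at -171 and -147 before Col6a3. The GC box was found at -205 and -73 of Col5a1 and at -175 of Col6a2, and in 32.7% of all promoters. The TATA letters stood at -117 of Col3a1 and in 12.4% of all promoters. The CCAAT letters were in none of the 4 and in 33.9% of all promoters. Of the entries not printed, that of Col1a2 held CCAAT at -109, the GC box at -205 and -188 and CAGAC at -175. The other entry of Col6a2 held 3 GC boxes, and that of Col6a1 held none of the 4 motifs. A match to a motif is a description of these letters and not a bound site.

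The table held log2 TPM values after a batch correction by ComBat that treated the intestine as batch 1 and the liver as batch 2. After it, 99.4% of genes had liver and intestinal means within 1 log2 unit, and for the 8 collagen genes the gap was at most 0.70. Levels were therefore compared within a tissue and never between tissues. The correction may also have rescaled the spread and the differences within a tissue. Each value is a level in log2 TPM, taken here as log2 of TPM plus 1, and a fold is 2 raised to the difference of means on that scale. Folds of low genes are therefore compressed. With 0.1 added in place of 1, the liver SBR differences of the 8 genes ran from 1.55 to 3.45, beside 1.47 to 3.36. The TPM values summed to between 618210 and 863110 in the 40 libraries. No read counts were used here, so the depth behind each value is unknown. The tissue labels could not be checked by markers, since hepatocyte markers summed to as much as 13267 TPM in the intestine after the correction.

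After SBR, all 8 collagen genes rose in the liver, by between 2.76-fold for Col5a1 and 10.2-fold for Col1a1. Every SBR vehicle liver lay above every sham liver for each of the 8 genes. By limma across 15896 genes, all 8 passed an adjusted p of 0.05, where 37.5% of all genes were called higher and 4.48% lower. Groups that did not overlap in this direction were found for 15.6% of all genes. The median log2 difference was 2.21 over the 8 genes and 0.25 over all genes tested. The exact two-sided permutation p was 0.000777 for each of the 8, the smallest that 5 against 8 libraries allow.

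**Figure D1:**
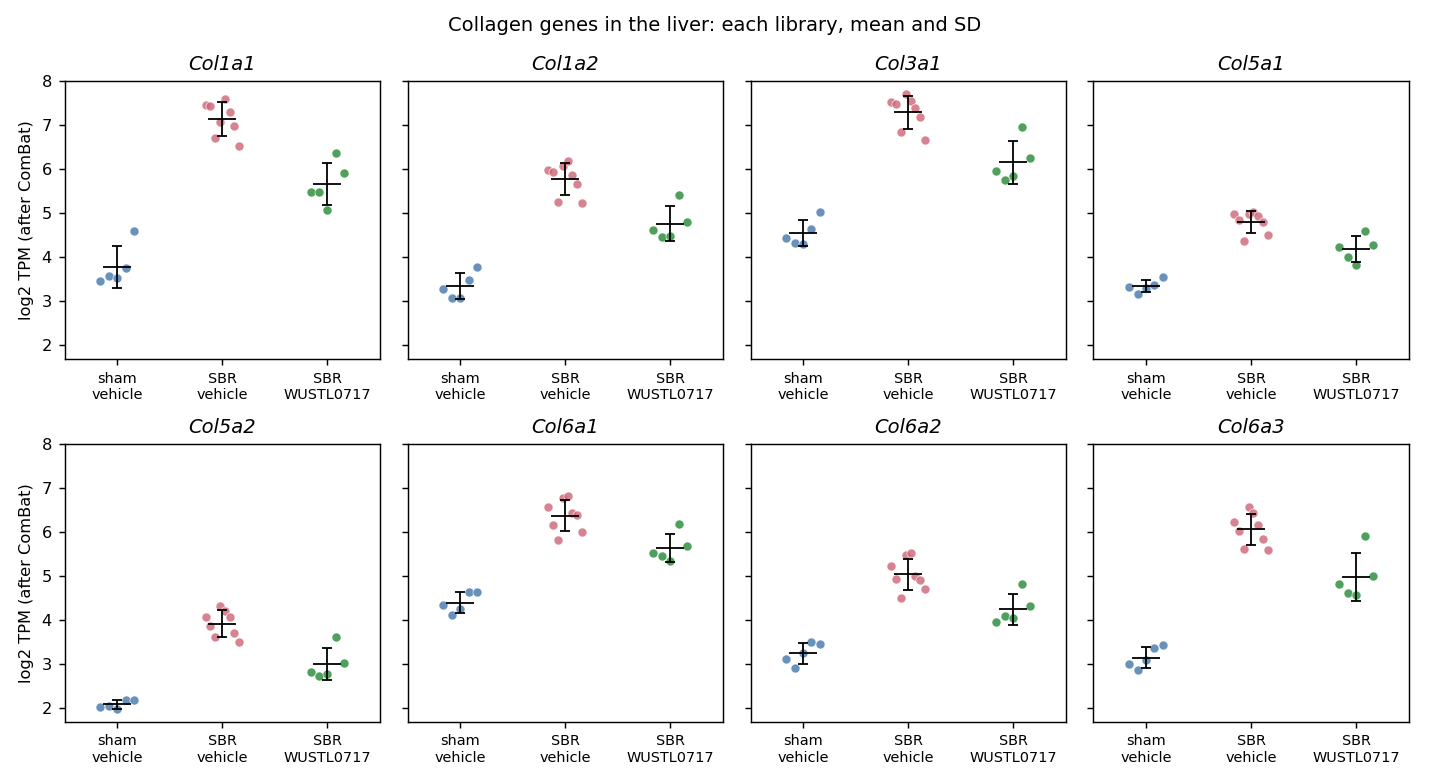
Log2 TPM of each of the 8 collagen genes in the liver (vertical axis) for 5 libraries after sham surgery, 8 after SBR with vehicle and 5 after SBR with WUSTL0717. Points are libraries, and bars give the mean and SD. The sham libraries sit below all others in all 8 panels, and 1 WUSTL0717 library, replicate 4, stands above the others of its group and within the SBR vehicle range for 7 of the 8 genes.

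Col1a1, the more abundant chain of type I collagen, gave levels of 3.45, 3.58, 3.52, 3.75 and 4.60 log2 TPM in the 5 sham livers. In the 8 SBR vehicle livers its lowest level was 6.52, its median 7.20 and its highest 7.60. Sham replicate 5 stood apart from the other 4 and still lay well below the lowest SBR vehicle liver. The means were 3.78 ± 0.47 (SD, n = 5) and 7.14 ± 0.38 (SD, n = 8), a log2 difference of 3.36 with a standard error of 0.23 (limma, adjusted p = 8.39e-09). This was the 9th highest difference of the 15896 genes. Without sham replicate 5 the difference was 3.56.

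Col1a2, the partner chain of type I, gave 3.28, 3.06, 3.08, 3.49 and 3.77 in sham livers and 5.23, 5.91 and 6.18 as the lowest, median and highest SBR vehicle levels. The groups did not overlap, and the log2 difference was 2.44 ± 0.19 (SE), or 5.44-fold (limma, adjusted p = 2.49e-08). Col3a1, the type III chain, gave 4.45, 4.32, 4.30, 4.64 and 5.02 in sham livers and 6.66, 7.45 and 7.72 after SBR. Its mean level of 7.30 ± 0.37 (SD, n = 8) after SBR was 6.75-fold that of sham livers, a log2 difference of 2.75 ± 0.20 (SE; limma, adjusted p = 1.55e-08).

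The type V chains, which regulate fibril assembly, rose least among the fibril formers. Col5a1 gave 3.32, 3.17, 3.30, 3.37 and 3.55 in sham livers and 4.37, 4.90 and 5.04 after SBR, a log2 difference of 1.47 ± 0.13 (SE; limma, adjusted p = 1.18e-07). Col5a2 gave 2.01, 2.03, 1.97, 2.19 and 2.18 in sham livers and 3.50, 3.96 and 4.32 after SBR, a log2 difference of 1.84 ± 0.15 (SE; limma, adjusted p = 5.43e-08). The sham libraries were tightest for Col5a2, with an SD of 0.10 (n = 5).

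Among the type VI chains, Col6a3 rose more than its partners. Col6a3, the longest chain, gave 3.00, 2.86, 3.08, 3.36 and 3.43 in sham livers and 5.60, 6.09 and 6.58 after SBR. Its log2 difference was 2.92 ± 0.21 (SE), or 7.56-fold (limma, adjusted p = 1.20e-08), the 15th highest of all genes. Col6a1 gave 4.34, 4.10, 4.26, 4.64 and 4.64 in sham livers and 5.82, 6.41 and 6.82 after SBR, a log2 difference of 1.98 ± 0.17 (SE; limma, adjusted p = 7.84e-08). Col6a2 gave 3.10, 2.91, 3.25, 3.49 and 3.45 in sham livers and 4.50, 4.97 and 5.53 after SBR, a log2 difference of 1.80 ± 0.18 (SE; limma, adjusted p = 2.68e-07). The sham libraries of both chains were all below the SBR vehicle libraries.

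Within SBR vehicle livers, replicate 5 was highest for 5 of the 8 genes and replicate 4 for the other 3. Replicate 8 was lowest for 5 genes and replicate 3 for the other 3. In sham livers, replicate 5 was highest for 5 genes and replicate 4 for 3. The extremes of each group fell on the same few libraries across the 8 genes. Sham replicate 4 had the highest marker sums of its group for 8 of 9 lists, and sham replicate 5 for 1, leukocytes. SBR vehicle replicate 4 had the highest sums of its group for stellate cells and cholangiocytes, and replicate 5 for fibroblasts and hepatocytes.

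In SBR livers, all 8 collagen genes were lower with WUSTL0717 than with vehicle, by between 1.54-fold for Col5a1 and 2.77-fold for Col1a1. All 8 passed the limma test, where 2.67% of all genes were called lower and 1.45% higher. In a fit of these 2 groups alone 5 of the 8 were called, where 0.737% of all genes were called lower. An unmoderated two-sample test called 0 of the 8 (adjusted p between 0.084 and 0.129) and 0 of all 15883 genes, with 2223 of them at an unadjusted p under 0.05. The median log2 difference was -0.97 over the 8 genes and 0.02 over all genes. This comparison shares its SBR vehicle livers with the comparison above. The groups failed to overlap for 1 of the 8 genes, Col1a1, and for 0.308% of all genes in this direction.

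Col1a1 gave 5.49, 5.49, 5.08, 6.37 and 5.91 log2 TPM in the 5 WUSTL0717 livers, all below the lowest vehicle level of 6.52. Its mean of 5.67 ± 0.49 (SD, n = 5) was 1.47 ± 0.23 (SE) log2 units below vehicle (limma, adjusted p = 0.00369), the 6th lowest difference of all genes. The exact permutation p was 0.000777, the smallest possible. Col1a2 gave 4.62, 4.47, 4.47, 5.43 and 4.81, a log2 difference of -1.02 ± 0.19 (SE; limma, adjusted p = 0.00876). Its replicate 4 lay above the lowest vehicle liver and the other 4 lay below all of them.

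Col3a1 gave 5.96, 5.76, 5.85, 6.96 and 6.27 in the WUSTL0717 livers, a log2 difference of -1.14 ± 0.20 (SE; limma, adjusted p = 0.00691). Col5a2 gave 2.82, 2.74, 2.78, 3.61 and 3.02, a difference of -0.93 ± 0.15 (SE; limma, adjusted p = 0.00601). Col5a1 gave 4.24, 4.00, 3.83, 4.60 and 4.27, a difference of -0.62 ± 0.13 (SE; limma, adjusted p = 0.0156). In these 3 fibril formers too, replicate 4 alone reached into the vehicle range.

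Of the type VI chains, Col6a3 gave 4.82, 4.62, 4.57, 5.92 and 4.99, a log2 difference of -1.08 ± 0.21 (SE; limma, adjusted p = 0.00963). Col6a2 gave 3.96, 4.09, 4.04, 4.83 and 4.32, a difference of -0.79 ± 0.18 (SE; limma, adjusted p = 0.0174). Col6a1 gave 5.52, 5.45, 5.34, 6.18 and 5.69, a difference of -0.73 ± 0.17 (SE; limma, adjusted p = 0.0218). For the 7 genes other than Col1a1, the exact permutation p lay between 0.00233 and 0.00777.

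WUSTL0717 replicate 4 was the highest of its group for all 8 genes. Without it, the log2 differences ranged from -1.65 to -0.72, all 8 genes were called, and the groups overlapped for none of the 8, where 3.25% of all genes did not overlap in this direction. Without replicate 2 or replicate 3, 5 of the 8 were called, and Col5a1, Col6a1 and Col6a2 were not (limma, adjusted p up to 0.0756 and 0.0906). Over all genes, 0.459% and 0.359% were then called lower, and 5.16% without replicate 4. Without replicate 1, Col6a1 and Col6a2 were not called, where 0.679% of all genes were called lower.

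**Figure D2:**
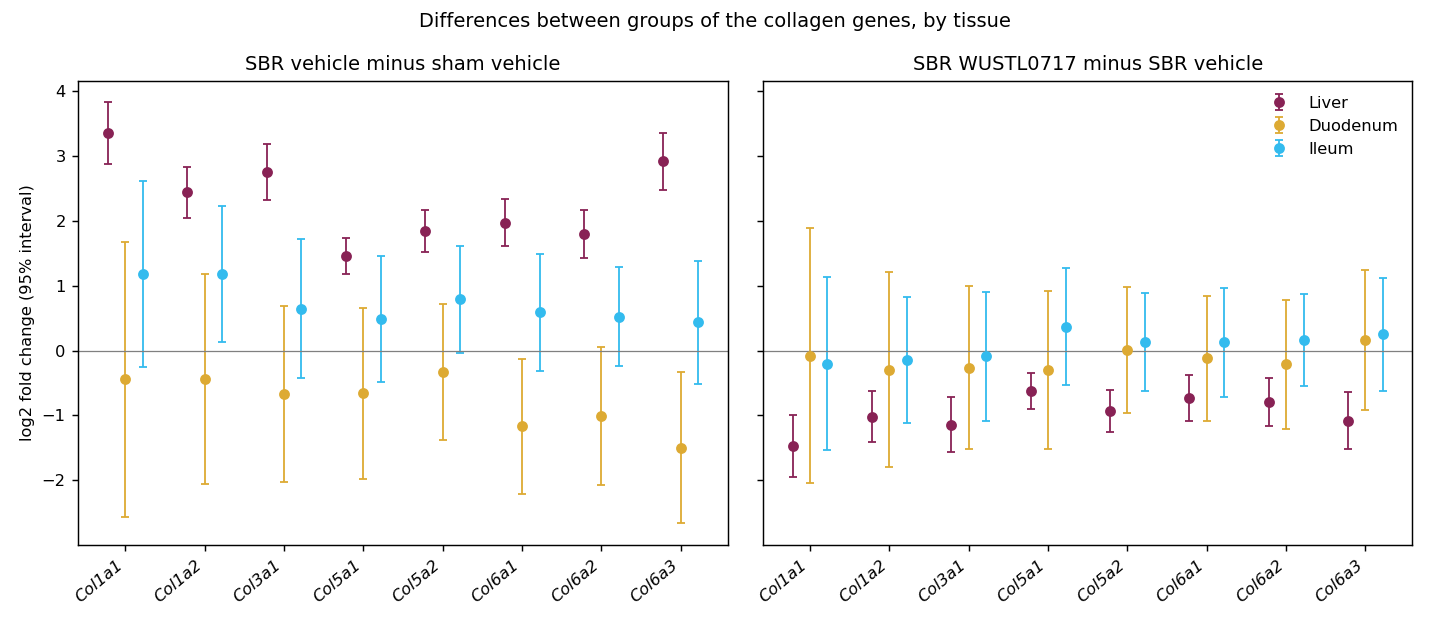
Log2 differences of the 8 collagen genes (horizontal axis) in each comparison within the liver, duodenum and ileum, with 95% intervals from limma. In the liver the SBR effects run from 1.47 to 3.36 and the WUSTL0717 effects from -1.47 to -0.62, while none of the 8 genes was called in either intestinal segment. With library weights, which are not plotted, Col6a1 and Col6a3 were called lower after SBR in the duodenum.

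The WUSTL0717 livers remained above sham livers for all 8 genes. The log2 differences ran from 0.85 for Col5a1 to 1.89 for Col1a1, beside a median of 0.27 over all genes. They ran from 0.54 to 1.58 when each library was centred on its median and from 0.53 to 1.56 after quantile normalization. All 8 were called in both, where 1701 and 1784 of 15896 genes were called higher. As deposited, the groups did not overlap for any of the 8, against 27.4% of all genes. All 8 were called by limma (adjusted p between 4.10e-05 and 0.00135), where 27.8% of all genes were called higher. The exact permutation p was 0.00794 for each, the smallest that 5 against 5 allow.

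The 3 group means place the WUSTL0717 livers on the scale from sham (0%) to SBR vehicle (100%). Because this scale reuses all 3 groups, it is a description with no test. On the log2 scale, 56.1% of the SBR difference remained for Col1a1, 58.2% for Col1a2, 58.5% for Col3a1 and 57.7% for Col5a1. It was 49.7% for Col5a2, 62.9% for Col6a1, 56.1% for Col6a2 and 63.0% for Col6a3, with a median of 57.9%. Replicate 4 lay between 77.0% and 95.1% of the way to SBR vehicle across the 8 genes.

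**Figure D3:**
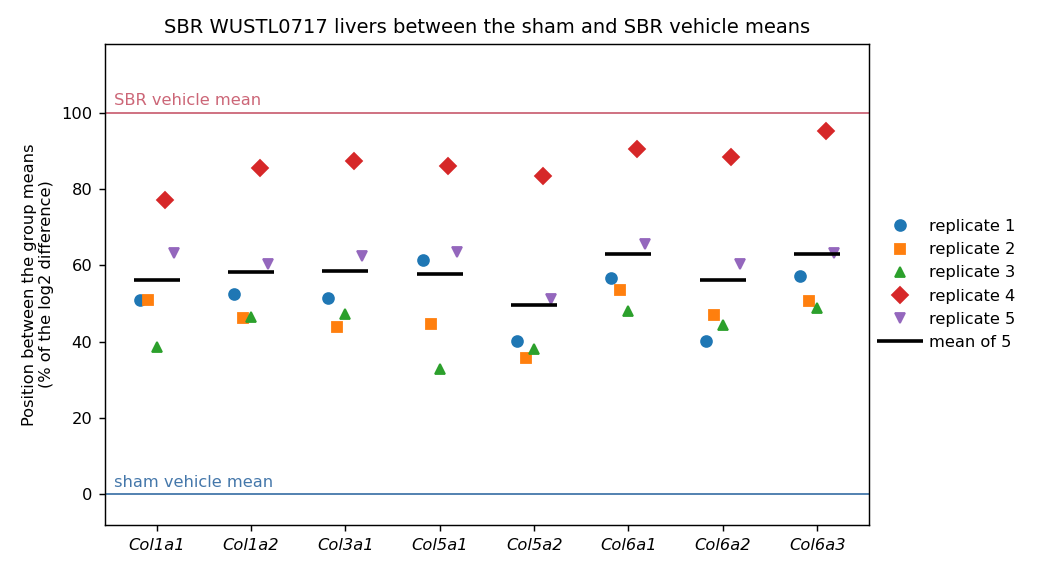
Position of each WUSTL0717 liver (points) and of their mean (bar) between the sham mean, set at 0%, and the SBR vehicle mean, set at 100%, on the log2 TPM scale, for each of the 8 collagen genes. The means lie between 49.7% and 63.0%, and replicate 4 lies highest for every gene.

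The balance between chains of 1 collagen was compared inside each liver library, as a description with no test. The level of Col1a1 exceeded that of Col1a2 by 0.44 ± 0.25 log2 units (SD, n = 5) in sham, 1.36 ± 0.16 (n = 8) in SBR vehicle and 0.91 ± 0.19 (n = 5) in WUSTL0717 livers. The highest sham value, 0.83, was below the lowest SBR vehicle value of 1.00. The level of Col6a3 relative to Col6a1 was -1.25 ± 0.07 in sham, -0.31 ± 0.13 in SBR vehicle and -0.65 ± 0.23 in WUSTL0717 livers. Col6a1 relative to Col6a2 moved less, with means of 1.16, 1.33 and 1.39. Col5a1 relative to Col5a2 had means of 1.26, 0.89 and 1.19. ComBat adjusted each gene separately and may also have rescaled it. The size of such a difference therefore cannot be taken as a ratio of molecules. The part of the correction in its change between groups was not tested.

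Across the 18 liver libraries, Pearson's r between pairs of the 8 genes ran from 0.97 to 1.00 over 28 pairs, with the closest pair Col1a2 and Col3a1. These points share the group differences. With each group's mean removed, r ran from 0.73 to 0.98. The genes whose liver pattern was most like the mean of the 8 scaled genes, by r over the 18 libraries among 15888 genes, were Mmp2 (0.997), Mrc2 (0.995), Ltbp3 (0.994), Adamts2 (0.994) and Col16a1 (0.993), followed by Igsf9, Col4a2, Bicc1, Evc2 and Ccdc3. Mmp2 is a gelatinase, Mrc2 an endocytic receptor for collagen and Adamts2 a protease that trims procollagen.

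The other genes of collagen assembly, anchoring and turnover were taken as 6 lists of 72 genes, of which 57 were in the table. In the liver after SBR, 40 of the 57 were called higher and 1 lower. With WUSTL0717, 0 were called higher and 15 lower. This last count rested on few libraries, at 5, 4 and 2 without WUSTL0717 replicate 1, 2 or 3 and 25 without replicate 4, and it ran from 0 by an unmoderated test to 33 with centred libraries. The lists were described by their counts and medians, beside 37.5% and 4.48% of all genes after SBR and 1.45% and 2.67% with WUSTL0717.

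After SBR, the counts of genes called higher changed little with the scaling, while more were called lower. With each library centred on its median, where 20.4% of all genes were called higher and 28.8% lower, the folding list had 8 higher and 4 lower, the cleavage list 6 and 1, the fibril-associated list 10 and 1, the receptors 6 and 0 and the degrading enzymes 8 and 0. With WUSTL0717, centring gave 3 folding genes higher and 6 lower, where 1824 of all 15896 genes were called higher and 1303 lower.

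Of 16 genes for procollagen folding and modification, 9 rose after SBR and none fell, with a median log2 difference of 0.42. Serpinh1, the collagen chaperone HSP47, rose by 1.75, Fkbp10, a prolyl isomerase, by 1.48, and Crtap, a partner of the prolyl 3-hydroxylases, by 1.12. With WUSTL0717, 2 fell (0 to 5 with 1 library left out), among them Fkbp10 at -0.59 (limma, adjusted p = 0.0471), while Serpinh1 at -0.44 was not called (limma, adjusted p = 0.171). Of 7 genes for propeptide cleavage and crosslinking, 6 rose after SBR, with a median of 1.32. Loxl1, a crosslinking oxidase, rose by 2.30, Adamts2 by 1.96 and Pcolce, an enhancer of C-propeptide removal, by 1.35. With WUSTL0717, 3 fell (1 to 5 with 1 library left out), including Loxl1 at -1.06 and Adamts2 at -0.75, and Pcolce at -0.44 was not called.

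Of 12 fibril-associated collagens and proteins, 10 rose after SBR, with a median of 1.27, and 4 fell with WUSTL0717 (0 to 6 with 1 library left out). Fbn1, the microfibril protein fibrillin-1, rose by 1.92 and then lay 0.85 log2 units lower with WUSTL0717. Sparc, a collagen-binding matrix protein, rose by 1.73 and fell by 0.74. Col16a1 rose by 1.41 and fell by 0.54. Of 10 collagen receptors, 6 rose after SBR (6 to 9 with 1 library left out) and 2 fell with WUSTL0717 (1 to 3). Both that fell, the receptor kinase Ddr1 (2.61 and -0.92) and Mrc2 (2.22 and -0.85), had also risen. Ddr2 rose by 1.04, and its WUSTL0717 difference of -0.27 was not called.

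The list of collagen-degrading enzymes and their inhibitors moved in the same direction as the collagens. All 8 genes measured rose after SBR, with a median log2 difference of 1.16, and 4 fell with WUSTL0717 (0 to 6 with 1 library left out). Mmp2 rose by 2.52 and fell by 1.03. Timp1 and Timp2, inhibitors of metalloproteinases, rose by 2.26 and 1.73 and fell by 0.90 and 0.66. For these 5 lists, in the order given, the numbers lower with WUSTL0717 were 0, 1, 0, 1 and 0 without WUSTL0717 replicate 3 and 5, 5, 6, 3 and 6 without replicate 4. The first of them was also 0 without SBR vehicle replicate 1, 4, 5, 6 or 7 or WUSTL0717 replicate 1, 2 or 5.

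The remaining fibrillar and type VI chains did not move with the 8. Of 9 listed, 4 were in the table. Col27a1, a minor fibrillar chain, fell by 0.41 after SBR (limma, adjusted p = 0.0152). Col6a5 was called higher at 0.29 (limma, adjusted p = 0.0351), but gave -0.01 when each library was centred on its median and -0.02 after quantile normalization. It also lost its call without sham replicate 1, 2, 4 or 5 or SBR vehicle replicate 1, 4, 6 or 8. Col5a3 at -0.12 and Col6a4 at 0.00 were not called, and 0 of the 4 were called with WUSTL0717.

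**Figure D4:**
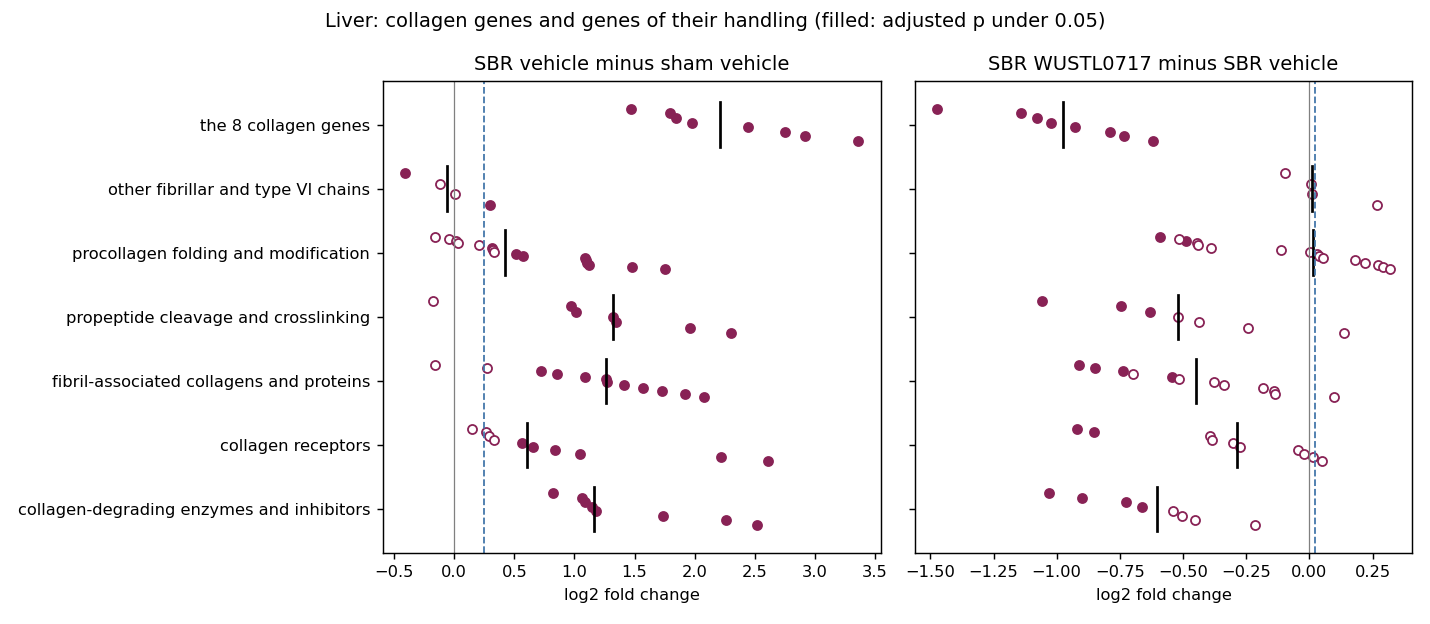
Log2 differences in the liver for the 8 collagen genes and the 6 lists of related genes (vertical axis), after SBR and with WUSTL0717. Each gene is a point, filled where called. The dashed line marks the median of all genes, the grey line no difference and the short black bars the median of each list. The 8 collagen genes have medians of 2.21 and -0.97, and the list of other fibrillar and type VI chains has medians of -0.06 and 0.01.

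Markers of 3 cell types moved with these genes, read against 37.5% of all genes called higher after SBR and 2.67% lower with WUSTL0717. In bulk tissue, more cells of a type and more RNA per cell cannot be told apart. Of 7 stellate cell markers, 7 rose after SBR and 2, Cygb and Pdgfrb, fell with WUSTL0717. Acta2 and Des were not in this list, as they were placed with the smooth muscle markers described below. The summed level of the stellate cell list was 60.2 to 85.2 TPM in sham, 124 to 208 in SBR vehicle and 105 to 186 in WUSTL0717 livers. Of 8 fibroblast markers, 8 rose and 3 fell with WUSTL0717, with sums of 51.4 to 103, 168 to 332 and 129 to 220 TPM. Eln, elastin, rose by 2.42 and fell by 1.23. Of 6 cholangiocyte markers in the table, 6 rose and 4 fell, with sums of 77.3 to 178, 369 to 710 and 202 to 470 TPM. The counts after SBR were the same with any library left out. Those with WUSTL0717 ran from 0 to 3 for stellate cells, 1 to 4 for fibroblasts and 2 to 5 for cholangiocytes. They were 0, 1 and 2 without WUSTL0717 replicate 1, 2 or 3.

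For the other cell types, the share of markers called higher after SBR was below the 37.5% of all genes. Of 7 smooth muscle markers, Des and Tagln rose after SBR, Acta2 had a log2 difference of -0.00 (limma, adjusted p = 0.996), and none was called with WUSTL0717. Of 6 endothelial markers, 0 were called in either comparison by limma, and 0 to 2 after SBR with 1 library left out. Of 7 macrophage markers, 2 rose after SBR (2 to 4 with 1 library left out), with Gpnmb at 2.72, and 1 fell (1 to 2). With WUSTL0717, 2 macrophage markers were higher (0 to 3). Of 3 leukocyte markers, 1 rose after SBR (1 to 3) and none was called with WUSTL0717 (0 to 1 lower). Of 7 hepatocyte markers, 3 fell after SBR (2 to 4), with Cyp2e1 at -0.92, and none was called with WUSTL0717 (0 to 1 higher). Of 6 enterocyte markers, 1 rose after SBR (1 to 3) and fell with WUSTL0717 (0 to 1). The higher ends of the ranges after SBR for endothelium, macrophages, leukocytes and enterocytes came without SBR vehicle replicate 2, for endothelium also without replicate 3. The calls of these cell types also moved with the scaling. With each library centred on its median, 4 smooth muscle, 4 endothelial, 7 hepatocyte, 3 macrophage and 3 enterocyte markers were called lower after SBR, beside 28.8% of all genes, and 1 smooth muscle marker higher. With WUSTL0717, 3 endothelial, 3 macrophage, 4 hepatocyte and 1 enterocyte markers were then called higher, beside 11.5% of all genes. Of the stellate cell, fibroblast and cholangiocyte markers, 7, 7 and 6 were still called higher after SBR, and 4, 6 and 5 lower with WUSTL0717. Of all 15896 genes, 3248 were then called higher after SBR and 1303 lower with WUSTL0717. None of the 4 mesothelial markers was in the table, and no marker in the table was listed at 0 throughout a tissue.

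The WUSTL0717 liver with the highest collagen levels, replicate 4, also had the highest summed markers in its group for 7 of the 9 marker lists in the table, the exceptions being hepatocytes and smooth muscle. Its sums were 470 TPM for cholangiocytes, 186 for stellate cells and 220 for fibroblasts, against 202 to 395, 105 to 131 and 129 to 181 TPM in the other 4. They were 165 TPM for macrophages against 135 to 158, 103 for endothelium against 88.2 to 93.3, 37.7 for leukocytes against 23.4 to 37.1 and 1726 for enterocyte markers against 1434 to 1650. The part of these cell types in the collagen differences was not tested.

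The scaling of the libraries changed how many genes moved in each direction, but not the calls of the 8 collagen genes in the liver. After SBR, 5954 genes were called higher and 712 lower as deposited. With each library centred on its median, 3248 were higher and 4573 lower, and with quantile normalization 3571 and 4256. The median difference of all genes moved from 0.25 to -0.06 and -0.04, and the 8 collagen genes, all called, ranged from 1.16 to 3.05 and from 1.19 to 3.11. With WUSTL0717, 231 genes were higher and 424 lower as deposited, 1824 and 1303 after centring, and 1286 and 1348 after quantile normalization. Between WUSTL0717 and sham livers these numbers were 4417 and 144, 1701 and 1420, and 1784 and 1393.

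In the duodenum, none of the 8 genes was called after SBR, and the estimates were all below 0, as was the median of all genes at -0.36. When each library was centred on its median, the 8 estimates ran from -1.09 to 0.08, with Col5a2 above 0. With library weights, Col6a1 at -1.23 (limma, adjusted p = 0.0462) and Col6a3 at -1.73 (limma, adjusted p = 0.0264) were called lower, where 15.8% of all genes were. As deposited, they ran from -1.50 for Col6a3 (95% interval -2.67 to -0.32; limma, adjusted p = 0.278) to -0.33 for Col5a2. Of all 15069 genes tested by limma, 0 were called (0%), with 2426 at an unadjusted p under 0.05, and 1 gene was called by an unmoderated test. Of the 8, Col6a1 and Col6a3 had an unadjusted p under 0.05. The exact permutation p was at least 0.0857 for every gene, where the smallest that 3 against 4 allow is 0.0286.

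Sham replicate 3 was the highest duodenal sham library for all 8 genes. Col1a1 gave 3.95, 3.87 and 7.48 in the sham duodenum, 5.73, 3.99, 4.37 and 4.53 after SBR, and 6.67, 2.93, 3.14 and 5.56 with WUSTL0717. Col6a3 gave 3.29, 4.20 and 5.26, then 3.62, 2.35, 2.90 and 2.14, then 3.90, 2.62, 2.76 and 2.39. The groups overlapped for both genes. Without sham replicate 3, the SBR estimates of the 8 genes ran from -0.99 to 0.74, and none was called. In that library the summed fibroblast markers were 92.0 TPM against 70.8 and 64.8 in the other 2, and the summed smooth muscle markers 89.8 against 103 and 71.6. Its macrophage sum was 185 TPM against 53.4 and 119, its endothelial sum 60.5 against 26.7 and 38.3 and its cholangiocyte sum 193 against 138 and 134. The stellate cell sum was 86.2 against 77.5 and 84.6, and the leukocyte sum was the lowest, 43.3 against 60.1 and 86.6. In the duodenum and ileum, the stellate cell and cholangiocyte sums are sums of the listed genes and do not show that these liver cells were present. The part of any cell type was not tested. Replicate 1 of the SBR vehicle and of the WUSTL0717 group was the highest for all 8 genes in its group. The marker sums of these libraries were also the highest of their group for 7 and 4 of the 9 lists. In the SBR vehicle library they were 76.1 TPM for fibroblasts against 23.3 to 34.3, 87.0 for stellate cells against 21.4 to 50.3, 129 for smooth muscle against 26.2 to 91.5 and 244 for cholangiocytes against 69.1 to 105. In the WUSTL0717 library they were 53.0 for fibroblasts against 21.6 to 31.2, 58.9 for stellate cells against 43.2 to 50.5 and 143 for cholangiocytes against 106 to 130. The part of any cell type was again not tested.

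In the ileum, all 8 estimates after SBR were above 0 and none was called, where 0.349% of all genes were. They ran from 0.44 for Col6a3 to 1.19 for Col1a1, and Col1a2, at 1.18 (95% interval 0.13 to 2.23; limma, adjusted p = 0.492), was the 1 gene with an unadjusted p under 0.05. Col1a1 gave 3.53, 4.86 and 5.74 in the sham ileum, 6.55, 6.78, 4.78 and 5.48 after SBR, and 5.08, 5.06, 7.20 and 5.44 with WUSTL0717. Col3a1 gave 4.76, 6.01 and 6.76, then 7.30, 6.68, 5.98 and 6.01, then 5.73, 6.33, 7.05 and 6.50. The groups overlapped, and sham replicate 1 was the lowest and sham replicate 3 the highest of its group for all 8 genes. The summed smooth muscle markers of the 3 sham libraries were 97.0, 95.6 and 324 TPM, and the fibroblast sums 125, 156 and 272 TPM. The sums of the stellate cell list were 74.2, 73.4 and 176, the endothelial sums 60.1, 70.0 and 92.2, and the leukocyte sums 73.9, 58.0 and 28.6 TPM. Without sham replicate 1 the estimates ran from -0.07 to 0.60, and without sham replicate 3 from 0.88 to 1.70.

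**Figure D5:**
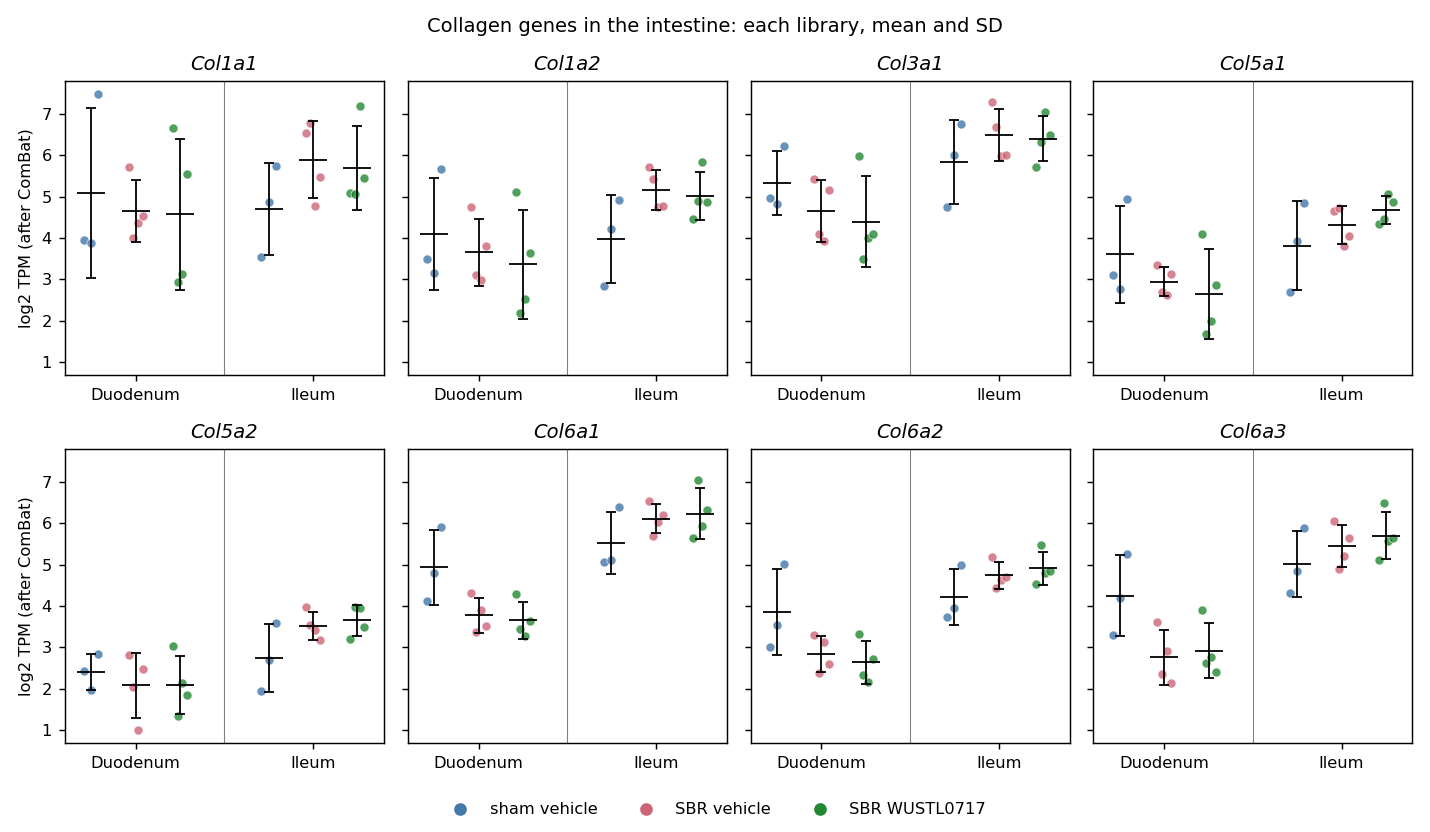
Log2 TPM of each of the 8 collagen genes (vertical axis) in the duodenum and ileum, each with 3 libraries after sham surgery, 4 after SBR with vehicle and 4 after SBR with WUSTL0717. Points are libraries, and bars give the mean and SD. The groups overlap in every panel, and Col1a1 in the sham duodenum spans 3.87 to 7.48.

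WUSTL0717 gave no called change of the 8 genes in either intestinal segment. In the duodenum the estimates relative to SBR vehicle ran from -0.30 to 0.16, where 0.272% of all genes were called. In the ileum they ran from -0.20 to 0.37, where 0.0698% were called. Ileal WUSTL0717 replicate 2 was the highest of its group for 4 of the 8 genes, Col5a2 and the 3 type VI chains, and replicate 3 for the other 4. Replicate 2 also had the highest sums of its group for 7 of the 9 marker lists. Among them were 522 TPM for fibroblasts against 211 to 263 and 318 for the stellate cell list against 115 to 131. The part of cell types in this was not tested. Without replicate 2, the estimates for Col6a1, Col6a2 and Col6a3 changed from 0.13, 0.17 and 0.25 to -0.15, -0.02 and -0.01. The 95% interval held the liver estimate of the same gene for 7 of the 8 genes in the duodenum, the exception being Col6a3, but for 2 of the 8 in the ileum, Col1a1 and Col1a2. For Col1a1, with a liver estimate of -1.47, the intervals were -2.05 to 1.88 in the duodenum and -1.53 to 1.13 in the ileum. For Col6a3, with a liver estimate of -1.08, their lower bounds were -0.92 and -0.63. None of the 6 lists of related genes had a called member in these 4 intestinal comparisons. Pearson's r between pairs of the 8 genes ran from 0.43 to 0.99 over 11 duodenal and from 0.35 to 0.98 over 11 ileal libraries. With each group's mean removed, the lowest and highest r were 0.38 and 0.99 for duodenal and 0.15 and 0.98 for ileal libraries, with medians of 0.82 and 0.77 against 0.90 in the liver. The difference between tissues was not tested.

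The SBR effect itself was compared between tissues in a joint fit of all 40 libraries. On simulated data this fit made too many false calls, so its adjusted p values may be too small. The runs below with other scalings or a library left out used it too. The liver effect exceeded the duodenal effect for all 8 genes, by between 2.13 for Col5a1 and 4.41 for Col6a3 on the log2 scale (limma, adjusted p between 4.74e-07 and 0.00402), where 26.5% of all genes were called in this direction. The median of all genes for this difference was 0.64. The 8 differences ran from 1.41 to 3.70 when each library was centred on its median and from 1.40 to 3.79 after quantile normalization, with all 8 called in both (limma, adjusted p up to 0.043). With a separate spread for each tissue, all 8 were still called (limma, adjusted p between 0.000315 and 0.0436), against 9.68% of all genes. Without duodenal sham replicate 3, the differences ran from 1.45 to 3.91 and all 8 were called, where 16.1% of all genes were called in this direction. Of all genes, 3984 were called higher and 378 lower as deposited, 1297 and 1834 after centring, and 1701 and 1641 after quantile normalization.

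Against the ileum, the joint fit called the liver effect larger for 2 of the 8 genes, where 3.77% of all genes were called in this direction. The difference was 2.48 for Col6a3 (limma, adjusted p = 0.00275) and 2.11 for Col3a1 (limma, adjusted p = 0.0272). With a separate spread per tissue, the same 2 genes were called (limma, adjusted p = 0.00601 and 0.0323), against 3.22% of all genes. Col3a1 lost its call without ileal sham replicate 2 or 3, or SBR vehicle replicate 3 or 4. Col6a1 gained a call with centred libraries, with quantile normalization, with library weights, and without ileal sham replicate 1 or liver SBR vehicle replicate 3, and Col6a2 with quantile normalization. As deposited, for the other 6 genes the estimates ran from 0.97 for Col5a1 to 2.17 for Col1a1, whose 95% interval was 0.35 to 3.99 (limma, adjusted p = 0.182). Over all 8 genes, the differences ran from 0.46 to 2.04 without ileal sham replicate 3 and from 1.45 to 2.83 without ileal sham replicate 1. Of all genes, 592 were called higher and 249 lower as deposited, 514 and 544 after centring, and 608 and 587 after quantile normalization. Tissue and batch are the same split, so a tissue difference and an effect of the correction cannot be told apart.

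The WUSTL0717 effect was not shown to differ between tissues for any of the 8 genes. The liver estimate lay below the duodenal by 0.32 to 1.39 log2 units and below the ileal by 0.86 to 1.33, with 0 of the 8 called against either segment by limma (2 and 3 at an unadjusted p under 0.05). With 1 library left out, liver minus duodenum ran from -1.94 to -0.69 for Col1a1, -1.12 to -0.14 for Col1a2 and -0.65 to 0.16 for Col5a1. Liver minus ileum then ran from -1.57 to -0.77 for Col1a1. Of all genes, 0.924% and 0.223% were called as deposited.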

How the data were processed

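RNA from 40 mouse tissue samples was depleted of ribosomal RNA and sequenced. According to the methods of the study and the submitters' processing notes, the authors aligned reads with STAR to GRCm38 (Ensembl 101), counted them with featureCounts, applied edgeR's TMM scaling and deposited log2 TPM values after ComBat, with the intestine as batch 1 and the liver as batch 2. Of the values, 2752 were below 0. Library depth is not given in the sources used here.

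Within each tissue, genes averaging 1 log2 TPM or more were tested by limma 3.58.1 (R 4.3.3; trended variance, 3 groups in 1 fit), with Benjamini-Hochberg adjustment over all genes and a threshold of 0.05. Each collagen gene was also given an exact two-sided permutation test. Replicates are separate mice. Effects were compared between tissues in a fit of 9 groups. A fit with a separate spread per tissue was added after the data were seen, because on simulated data the joint fit made too many false calls. Scripts were tested on simulated data.

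The collagen genes, lists and markers were chosen with earlier results of these data known. Genes named from a list were its 3 with the smallest p for SBR in the liver, and the 10 most similar genes were ranked by Pearson's r with the mean of the scaled collagen genes. Genes named outside this rule were chosen after their values were seen. Alternatives covered scaling, filters, pseudocounts, the test, library weights, the replicate number as a block and each library left out.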

Additional observations from a re-analysis of the deposited data

Results flagged for a closer look

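In the sham livers, Col1a1 in replicate 5 stood apart from the other 4 libraries at 4.60 log2 TPM, with the next at 3.75. The gap was 0.743 of the range of the group, above Dixon's 95% critical value for 5 samples. It was the 1 such library among 56 sets of 1 gene in 1 group of 4 or more libraries, where chance alone gives about 1 in 20. The 16 sets from the intestinal sham groups, of 3 libraries each, were not examined in this way. Among them, Col1a1 in the sham duodenum had a gap of 0.978 of its range, between 3.95 and 7.48 log2 TPM, and Col6a1 in the sham ileum one of 0.961.

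The SBR effect was called different between the liver and the duodenum for all 8 genes in the fit of 40 libraries. On simulated data that fit made too many false calls. The log2 differences, liver minus duodenum, were 3.80 for Col1a1, 2.89 for Col1a2, 3.43 for Col3a1, 2.13 for Col5a1, 2.17 for Col5a2, 3.14 for Col6a1, 2.81 for Col6a2 and 4.41 for Col6a3. Liver minus ileum, the SBR effect was called different for Col3a1 at 2.11 and for Col6a3 at 2.48. The tissues were corrected as separate batches, and the part of that correction in these differences was not tested.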

How the results depend on the processing

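In the liver, all 8 genes kept their call after SBR and relative to sham under WUSTL0717 in every alternative run, including each library left out and each scaling. The WUSTL0717 effect relative to vehicle was less firm: 0 of the 8 genes were called by an unmoderated two-sample test (adjusted p between 0.084 and 0.129), which called 0 of all genes with 2223 at an unadjusted p under 0.05. It kept 5 in a fit of the 2 groups alone, where 0.737% of all genes were called lower, and between 5 and 8 with 1 library left out. In the duodenum, 2 were called after SBR with library weights, Col6a1 at -1.23 (limma, adjusted p = 0.0462) and Col6a3 at -1.73 (limma, adjusted p = 0.0264), where 15.8% of all genes were called lower. The SBR difference between liver and ileum was called for 4 genes after quantile normalization, beside 3.87% of all genes, and for between 1 and 3 with 1 library left out. The cause of these changes was not tested. Apart from leaving out libraries, the number of all genes called ranged over the alternatives from 4180 to 10458 for SBR and from 0 to 3127 for WUSTL0717 in the liver, from 3121 to 8381 for WUSTL0717 against sham, from 0 to 2579 and from 2 to 98 in the duodenum, from 5 to 276 and from 1 to 19 in the ileum, and from 1150 to 7397, 384 to 2025, 47 to 311 and 15 to 301 for the differences of SBR and of WUSTL0717 effects from duodenum and ileum. With 1 library left out, the ranges in the liver were 5375 to 9005, 99 to 1067 and 2444 to 4862, in the duodenum 0 to 452 and 10 to 37, in the ileum 5 to 39 and 2 to 14, and for the differences 2736 to 6380, 473 to 940, 106 to 283 and 25 to 77.

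The replicate number as a block left 8 of the 8 genes called in each of the 3 liver comparisons and 0 in the intestine. Under it, 30.6% of all genes were called higher after SBR, 2.24% lower with WUSTL0717 and 37.2% higher with WUSTL0717 than in sham livers, and at most 0.133% were called in an intestinal comparison. Deviations of libraries with the same number correlated from -0.20 to 0.17 in the liver, -0.30 to 0.33 in the duodenum and -0.32 to 0.24 in the ileum. For different numbers these ranges were -0.25 to 0.28, -0.55 to 0.51 and -0.32 to 0.27. The numbers thus gave no sign of pairing, although a weak pairing could be missed.

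Estimates that changed sign were small or came from the intestine. Centring gave Col6a5 -0.012 after SBR and -0.10 for WUSTL0717 against sham, Col5a3 -0.15 for the latter, and in the duodenum Col5a2 0.078 after SBR and -0.037 with WUSTL0717. Quantile normalization gave Col6a5 -0.016 and -0.041, Col5a3 -0.16, duodenal Col5a2 0.096 and -0.091, and ileal Col6a1 -0.034 with WUSTL0717. Library weights gave Col5a3 0.12 after SBR and Col27a1 -0.17 with WUSTL0717 in the liver, Col1a1 0.015 after SBR and Col5a2 -0.12 with WUSTL0717 in the duodenum, and -0.033, -0.23, -0.11 and -0.13 for Col5a2, Col6a1, Col6a2 and Col6a3 with WUSTL0717 in the ileum. A pseudocount of 5 gave duodenal Col1a1 0.020 and Col5a2 -0.0053 with WUSTL0717. With 1 library left out, Col27a1 with WUSTL0717 in the liver ranged from -0.11 to 0.10. After SBR, duodenal Col1a1 ranged from -1.06 to 0.74, Col1a2 from -0.91 to 0.34, Col5a1 from -1.08 to 0.012 and Col5a2 from -0.57 to 0.035, and ileal Col5a1 from -0.073 to 1.01. With WUSTL0717 in the duodenum, Col1a1 ranged from -0.78 to 0.47, Col1a2 from -0.88 to 0.10, Col3a1 from -0.79 to 0.041, Col5a1 from -0.78 to 0.028, Col5a2 from -0.36 to 0.25, Col6a1 from -0.33 to 0.059 and Col6a3 from -0.16 to 0.45. In the ileum, Col1a1 ranged from -0.70 to 0.094, Col1a2 from -0.42 to 0.045, Col3a1 from -0.30 to 0.18, Col6a1 from -0.15 to 0.32, Col6a2 from -0.019 to 0.32 and Col6a3 from -0.010 to 0.45. The difference of the WUSTL0717 effect between liver and duodenum ranged from -0.65 to 0.16 for Col5a1.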
